A study of Mus musculus with 6 samples.

Results

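Fatty acid oxidation genes and targets of the nuclear receptor PPAR-alpha were examined in mouse liver 4 h after a lentiviral vector. The set was written as 37 gene symbols with known roles in these pathways, and 35 of them were found among the 8390 genes of the table by that symbol. Of the others, Plin2 is listed under its older symbol Adfp and is described apart, and Pdk4 is not among the listed genes. All 35 passed the filter on low values. The LV group comprised 3 liver samples of C57BL/6 mice injected intravenously with 3e8 transducing units of a lentiviral vector, a particle that carries genes into cells without replicating. The other 3 samples came from untreated C57BL/6 livers, the labels do not say whether each sample is a separate animal, and no mock-injected group is among the samples, so effects of the vector and of the injection cannot be told apart. The labels give no age, sex, feeding state or time of day. RNA was taken from whole liver, where fewer cells of a type and less RNA per cell cannot be told apart.

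The liver burns fatty acids mainly in mitochondria. An acyl-CoA synthetase activates the fatty acid, the carnitine shuttle carries it across the mitochondrial membranes, and repeated cycles of dehydrogenation, hydration and thiolysis shorten it, with electrons passed on through electron transfer flavoprotein. Peroxisomes shorten very long and branched chains by a parallel route, and thioesterases release free acids and coenzyme A from acyl-CoA. PPAR-alpha, encoded by Ppara, binds fatty acids, pairs with the retinoid X receptor on direct repeats of the core site AGGTCA and turns on many genes of these steps, above all in fasting.

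Start-site sequences are shown for Fabp1, a classic PPAR-alpha target, and for the thiolase paralogs Acaa1b and Acaa1a, whose fold changes lay at opposite ends of the peroxisomal group. They come from RefSeq on GRCm38.p6, run 5′ to 3′ along the gene from 250 bases before its start to 50 after, and are not in the build mm9 that the submitters' processing notes name. Capitals mark a loose form of the direct repeat bound by PPAR-alpha, 2 copies of AGGNCA with 1 base of any kind (N) between them. The windows are chr6:71199629-71199928 (plus strand) for Fabp1, chr9:119157044-119157343 (minus strand) for Acaa1b and chr9:119341044-119341343 (plus strand) for Acaa1a.
Fabp1: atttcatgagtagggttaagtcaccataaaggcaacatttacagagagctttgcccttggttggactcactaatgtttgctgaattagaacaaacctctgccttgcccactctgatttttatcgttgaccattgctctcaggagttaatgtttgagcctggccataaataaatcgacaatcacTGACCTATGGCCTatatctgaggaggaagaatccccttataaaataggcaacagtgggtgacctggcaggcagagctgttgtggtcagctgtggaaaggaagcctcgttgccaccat
Acaa1b: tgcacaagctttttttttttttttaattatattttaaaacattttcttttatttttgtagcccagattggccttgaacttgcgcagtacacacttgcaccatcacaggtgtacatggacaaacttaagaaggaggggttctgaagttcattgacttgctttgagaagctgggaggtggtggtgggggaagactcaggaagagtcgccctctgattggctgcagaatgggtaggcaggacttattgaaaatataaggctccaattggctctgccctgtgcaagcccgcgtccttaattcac
Acaa1a: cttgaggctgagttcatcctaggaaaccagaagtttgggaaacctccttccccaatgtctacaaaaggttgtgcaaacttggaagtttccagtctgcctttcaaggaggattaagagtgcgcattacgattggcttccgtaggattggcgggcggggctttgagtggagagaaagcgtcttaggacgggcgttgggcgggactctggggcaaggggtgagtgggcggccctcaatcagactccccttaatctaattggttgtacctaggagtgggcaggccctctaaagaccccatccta
The match in Fabp1 begins 67 bases before the start and reads AGGCCATAGGTCA on the opposite strand. Windows of this kind were found for 30 of the 35 genes (33 windows), and Fabp1 was the 1 gene with a match to the loose repeat on either strand. Over all 32851 windows, 0.381% held it. The strict repeat, 2 copies of AGGTCA with 1 base between them, was in none of the 33 windows and in 0.0396% of all. The core site AGGTCA on its own, which the strict repeat contains, was in 9 of the 33 windows and in 16.3% of all. A match is a run of letters and not a measured binding site.

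Nearly all of these genes had lower average values after the vector, but few differences passed the test. Of the 35 genes, 32 had a negative log2 fold change, with a median of -0.35, and negative values made up 58.1% of all 8386 genes tested, with a median of -0.07. With limma and Benjamini-Hochberg adjustment over all genes, 2 genes were lower at a threshold of 0.05, Acsl1 and Acaa1b, and 0 were higher. Over all genes tested, 0.87% were called lower and 3.76% higher. At an unadjusted p under 0.05, 15 genes were lower and 0 higher, where 10.3% and 9.21% of all genes were. In 17 of the 35 every LV value lay below every untreated value, against 11.0% of all genes, and in 0 did every LV value lie above, against 8.65%. The members were chosen with earlier results of these data known, so these shares describe the set and carry no test.

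**Figure D1:**
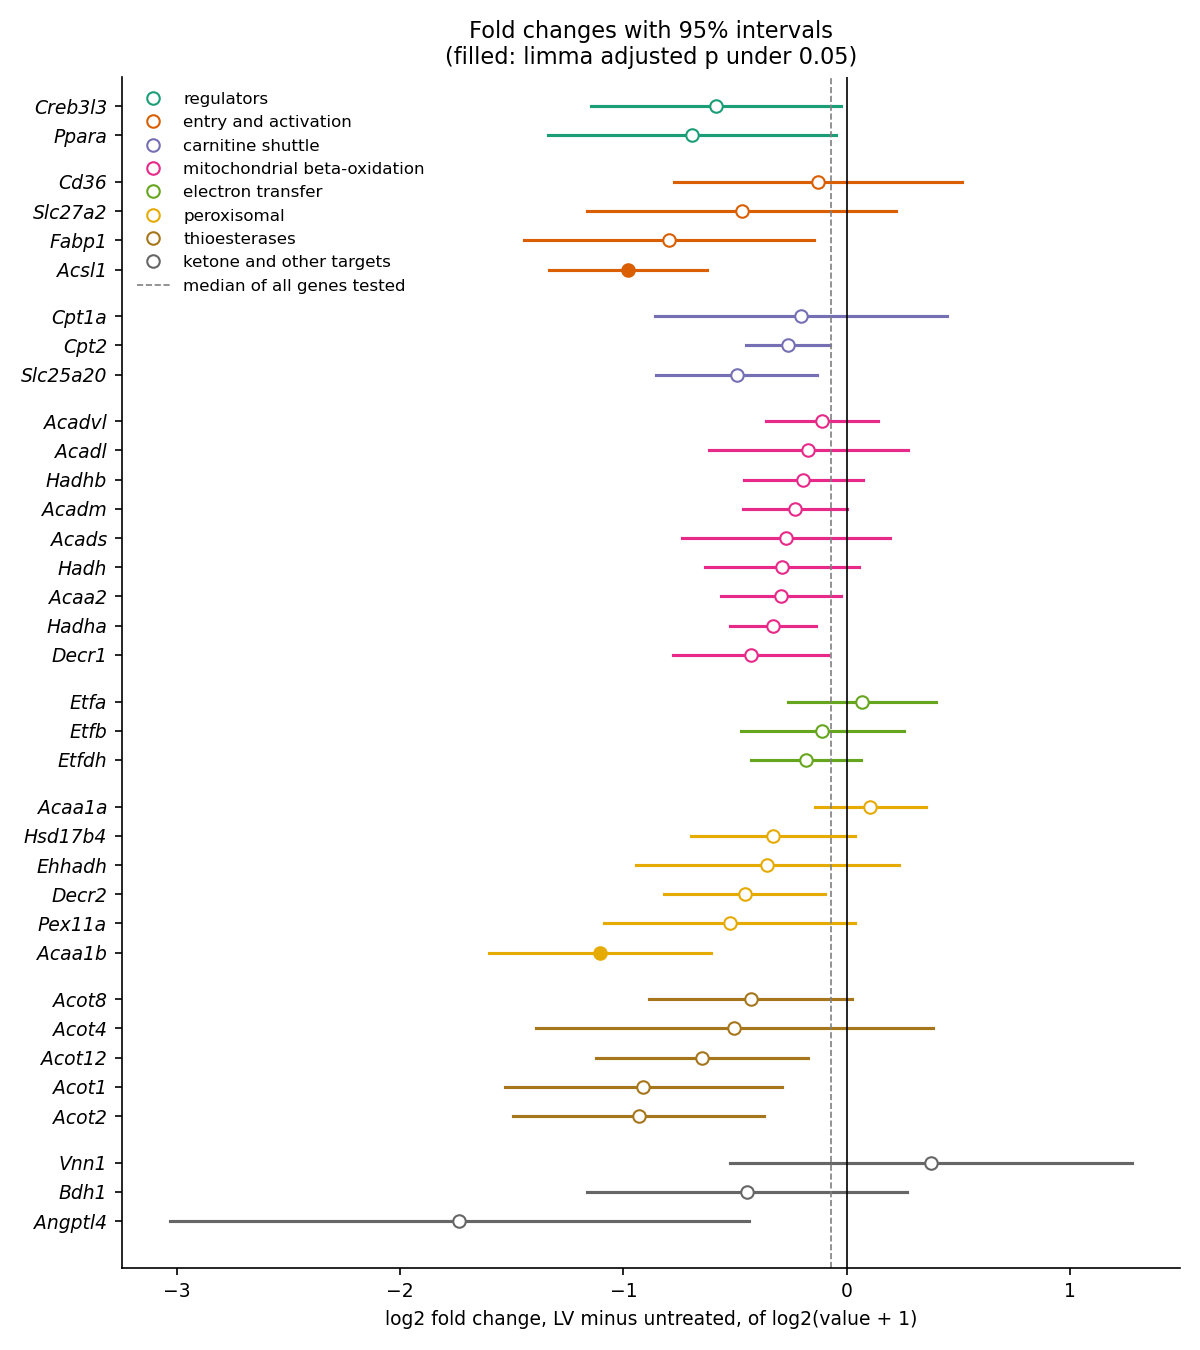
Log2 fold change of each of the 35 genes (LV minus untreated, on the log2(value + 1) scale) with its 95% interval from limma, grouped by role; filled points mark the 2 genes with an adjusted p under 0.05. Points lie left of 0 for 32 genes, and the intervals of 15 lie wholly below 0, as do those of 10.3% of all genes tested.

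Some differences between the libraries cut across the groups, and others ran with them. LV replicate 3 and untreated replicate 2 had summed values of 4896 and 4982 for 9 male-biased liver genes, against 142 to 1178 in the other libraries, and values of 101 and 178 for 7 female-biased genes, against 510 to 1130. Sex is not given in the labels. Markers of hepatocytes, all 8 of which were present, summed to between 63107 and 73556 in LV and between 68403 and 92750 in untreated livers. Alb made up most of each sum, and the markers differed. Hnf4a lay wholly higher in LV (227, 218 and 216 against 189, 193 and 184). Tat lay wholly lower (385, 380 and 260 against 432, 504 and 510), and the others overlapped between the groups. Of 6 sinusoidal endothelial markers, the sum was 54 to 95 in LV and 103 to 118 in untreated livers, with no overlap. The markers did not move together. Clec4g, the highest of them, had 11, 43 and 33 in LV against 55, 54 and 58. Lyve1 lay wholly higher in LV (10, 5 and 5 against 3, 3 and 2), and Stab1, Stab2, Kdr and Pecam1 overlapped between the groups. For 10 Kupffer cell and macrophage markers the sum was 135 to 315 against 248 to 368. Clec4f (19, 49 and 35 against 77, 53 and 53) and Vsig4 (5, 10 and 7 against 17, 15 and 18) lay wholly lower in LV. The other Kupffer cell and macrophage markers overlapped between the groups. Stellate cell markers (6 of 6 present) summed to 71 to 107 against 77 to 111. Among them, Dcn (39, 43 and 43 against 44, 49 and 59) and Lrat (3, 2 and 2 against 4, 4 and 4) lay wholly lower in LV. The other stellate cell markers overlapped. Erythroid markers (2 of 4) summed to 543 to 1343 against 473 to 1764, and the cholangiocyte list, with 1 of 5 present, to 20 to 31 against 18 to 35. No listed marker of these cell types was at 0 in any library, and 0 of the listed lymphocyte, neutrophil and adipocyte markers were in the table. Genes of the clock output, 6 of them, summed to 116, 210 and 215 in LV replicates 1, 2 and 3 and to 201, 353 and 368 in untreated replicates 1, 2 and 3. Of these genes, Tef (22, 37 and 38 against 45, 81 and 83) and Per2 (4, 6 and 6 against 8, 14 and 10) lay wholly lower in LV. The other clock output genes overlapped between the groups. The part of these differences in the results below was not tested.

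Among the regulators, Ppara had values of 13, 26 and 22 in LV replicates 1, 2 and 3 against 30, 35 and 32 in the untreated livers. The groups did not overlap, and LV replicate 1 was the lowest. The mean was 20.3 ± 6.66 (SD, n = 3) against 32.3 ± 2.52, a log2 fold change of -0.69 ± 0.26 SE that did not pass (limma adjusted p = 0.227). Creb3l3, a liver transcription factor that acts with PPAR-alpha in fasting, had 78, 116 and 122 in LV livers against 140, 140 and 192 in untreated livers. These too did not overlap, and the log2 fold change of -0.58 ± 0.22 did not pass (limma adjusted p = 0.243). The partner receptor Rxra lay at 130, 180 and 179 against 151, 159 and 143, with LV values on both sides of the untreated ones.

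Genes of fatty acid entry, binding and activation included the clearest decrease. Acsl1, the main long-chain acyl-CoA synthetase of liver, had 111, 138 and 153 in LV livers against 243, 266 and 281 in untreated livers. Every LV value lay well below the lowest untreated value. Its mean went from 263 ± 19.1 to 134 ± 21.3 (SD, n = 3), which is 50.9% of the untreated mean (log2 fold change -0.98 ± 0.14 SE, limma adjusted p = 0.0234). The call was lost without LV replicate 2 (adjusted p = 0.113) and without untreated replicate 1, 2 or 3 (0.0798, 0.0844 and 0.104), while the log2 fold change stayed between -1.08 and -0.85 with any 1 library left out.

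Fabp1, the abundant fatty acid binding protein of hepatocytes whose start-site window holds the loose repeat, had 4772, 5419 and 6190 in LV livers. The untreated values were 8308, 7625 and 13250. The groups did not overlap, but untreated replicate 3 stood far above the other untreated livers, and the log2 fold change of -0.80 ± 0.26 did not pass (limma adjusted p = 0.179). Slc27a2, a fatty acid transporter and very long chain acyl-CoA synthetase, had 394, 528 and 743 against 597, 777 and 887. LV replicate 3 reached into the untreated range (-0.47 ± 0.28, limma adjusted p = 0.403). Cd36, a surface receptor for fatty acids, was low throughout, at 8, 4 and 4 against 6, 6 and 5, where rounding to whole numbers limits what can be seen. The droplet coat gene Plin2, listed as Adfp and outside the 35, had 161, 210 and 191 against 193, 180 and 296, with overlap (-0.22 ± 0.22, limma adjusted p = 0.613).

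**Figure D2:**
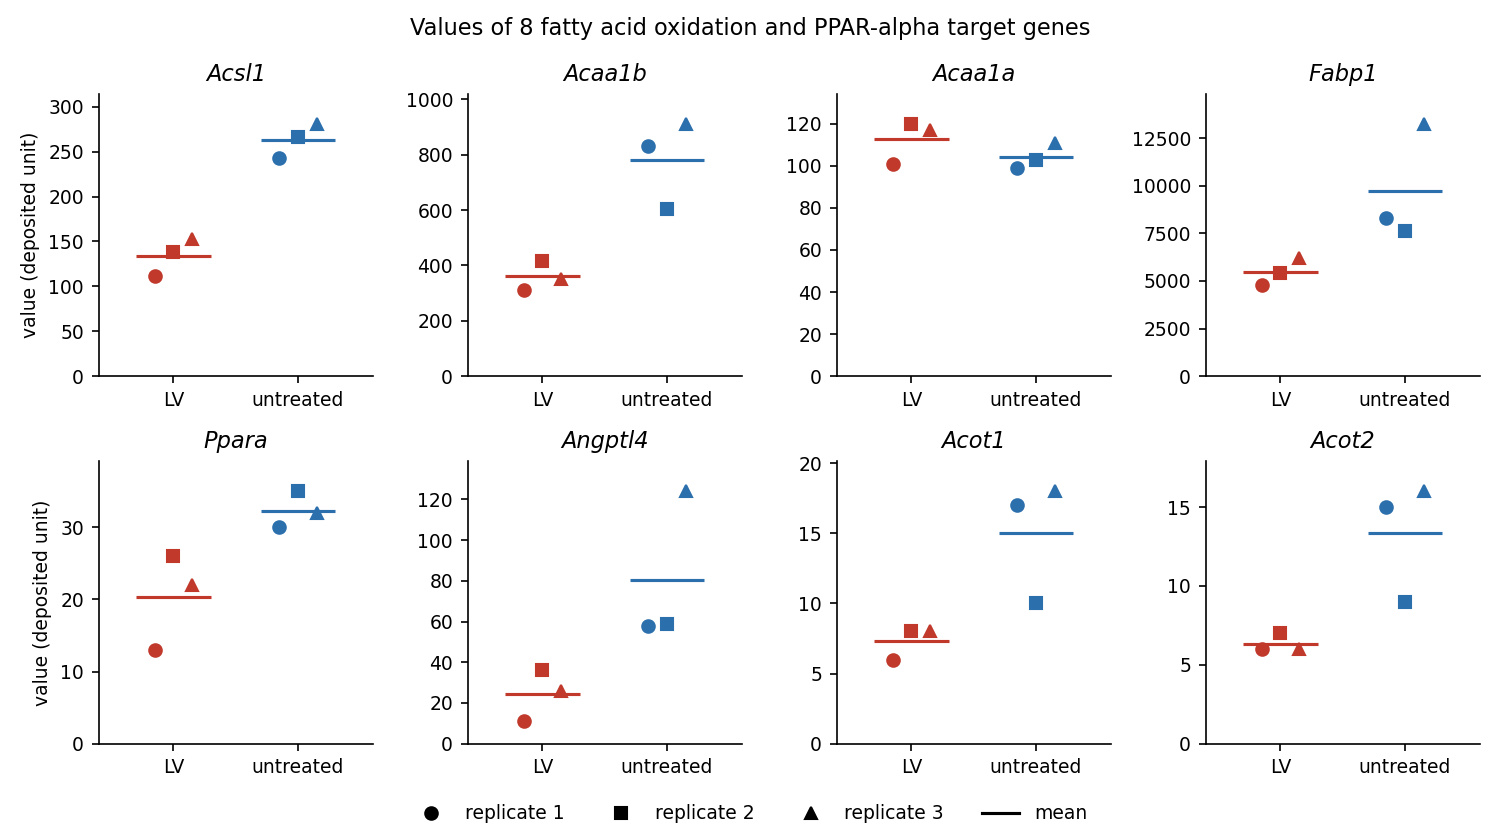
Values in the deposited unit of 8 genes in each of the 6 libraries, with a panel and a linear axis from 0 for each gene; symbols mark the replicate number and lines the group mean. The LV values lie below all untreated values for 7 of the genes; those of Acaa1a, between 101 and 120, overlap the untreated values of 99 to 111.

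Mitochondrial genes lay lower by a smaller step, and none of the 16 was called in limma. At an unadjusted p under 0.05, 5 were lower and 0 higher, where 10.3% and 9.21% of all genes were. Of these genes 15 had a negative log2 fold change, with a median of -0.25. In the carnitine shuttle, Cpt1a, which catalyses the rate-controlling step, had 94, 141 and 146 in LV livers against 112, 140 and 189 in untreated livers. These overlapped, and the 95% interval of its log2 fold change ran from -0.86 to 0.45. Slc25a20, the carnitine-acylcarnitine translocase, had 34, 41 and 38 against 54, 45 and 62. Cpt2, which re-forms acyl-CoA inside the mitochondrion, had 51, 57 and 56 against 66, 64 and 67. Neither overlapped between the groups, and neither passed (-0.49 ± 0.14 and -0.26 ± 0.08, limma adjusted p = 0.145 and 0.142).

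The 9 genes of the mitochondrial spiral all had negative log2 fold changes, from -0.43 to -0.11. Hadha, the alpha subunit of the trifunctional protein, came nearest to the threshold, with 92, 95 and 90 in LV livers against 117, 109 and 123 in untreated livers (-0.33 ± 0.08, limma adjusted p = 0.0890). It lay further from the threshold when the values were scaled, with a limma adjusted p of 0.184 for equal totals and 0.313 for median of ratios. Upper quartile and quantile scaling gave 0.216 and 0.206. For Hadha the gap between the groups, from 95 to 109, was wider than the range within LV. It was no wider than the range within the untreated livers, from 109 to 123. Hadhb, the beta subunit, was listed at 8 in each LV library and at 8, 10 and 10 in the untreated ones, so the groups touched.

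Decr1, the reductase for unsaturated chains, had 31, 39 and 33 against 44, 42 and 54 (-0.43 ± 0.14, limma adjusted p = 0.177). Acaa2, the mitochondrial thiolase, had 575, 659 and 691 against 786, 743 and 829. Acadm, the medium-chain dehydrogenase, had 101, 99 and 103 against 118, 108 and 131. In these 3 genes all LV values lay below all untreated ones. The other dehydrogenases overlapped: Acads, for short chains, had 72, 109 and 102 against 122, 99 and 117. Acadl, for long chains, had 87, 82 and 64 against 83, 75 and 105, and Acadvl, for very long chains, had 145, 162 and 145 against 179, 150 and 160. Hadh, the short-chain hydroxyacyl-CoA dehydrogenase, had 141, 168 and 136 against 196, 155 and 194. For Acadvl the 95% interval ran from -0.36 to 0.14, so a 2-fold change in either direction lies outside it.

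Electron transfer genes differed little between the groups. Etfa and Etfb, the subunits of electron transfer flavoprotein, had log2 fold changes of 0.07 ± 0.13 and -0.11 ± 0.15, and Etfdh, which passes the electrons to ubiquinone, had -0.18 ± 0.10. Etfa had 115, 89 and 91 in LV against 94, 101 and 85, and was the 1 mitochondrial gene with a positive fold change. That sign turned when LV replicate 1 was left out (-0.05). Bdh1, which interconverts the ketone bodies acetoacetate and 3-hydroxybutyrate, had 76, 107 and 73 against 136, 78 and 143. Untreated replicate 2 lay within the LV range, and LV replicate 3 was the lowest of all libraries (-0.45 ± 0.29, limma adjusted p = 0.443).

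Among the 6 peroxisomal genes, Acaa1b was lower and its close paralog Acaa1a was not. Acaa1b, a 3-ketoacyl-CoA thiolase long used as a marker of peroxisome proliferator treatment in rodents, had 313, 416 and 352 in LV livers against 833, 603 and 912 in untreated livers. The groups were far apart, and untreated replicate 2 was the lowest untreated library. The mean went from 783 ± 161 to 360 ± 52.0 (SD, n = 3), or 46.0% of the untreated mean (log2 fold change -1.10 ± 0.20 SE, limma adjusted p = 0.0443). The call was lost without LV replicate 1, 2 or 3 (adjusted p = 0.156, 0.120 and 0.0991) and without untreated replicate 1 or 3 (0.160 and 0.138), while the log2 fold change stayed between -1.28 and -0.98. Acaa1a had 101, 120 and 117 against 99, 103 and 111, with overlap (0.11 ± 0.10, 95% interval -0.14 to 0.35).

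The 95% intervals of these paralogs do not touch, since that of Acaa1b ended at -0.61, but no test of the difference between the genes was made. Their coding sequences in the GENCODE annotation of GRCm38 are both 1272 bases long and identical at 96.5% of positions, with a longest identical run of 327 bases. The sources used here do not say how the authors assigned reads that match both genes, so the split between them is uncertain.

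Ehhadh, the peroxisomal bifunctional enzyme and a PPAR-alpha target, had 128, 115 and 99 against 203, 117 and 129. Untreated replicate 1 set it apart, and the other untreated values lay near the LV values (-0.35 ± 0.24, limma adjusted p = 0.458). Decr2, the peroxisomal reductase for unsaturated chains, had 51, 58 and 63 against 69, 76 and 93. Hsd17b4, the bifunctional enzyme for branched chains, had 84, 101 and 122 against 125, 126 and 131. Neither overlapped between groups (-0.46 ± 0.14 and -0.33 ± 0.15, limma adjusted p = 0.172 and 0.291). Pex11a, which promotes division of peroxisomes, had 23, 26 and 36 against 32, 43 and 48, and LV replicate 3 overlapped the untreated range. The median of the 6 genes was -0.41, and 5 of them were negative.

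All 5 acyl-CoA thioesterases had negative fold changes, with a median of -0.65, and none was called in limma. At an unadjusted p under 0.05, 3 were lower and 0 higher, where 10.3% and 9.21% of all genes were. Acot1, the cytosolic enzyme strongly induced by PPAR-alpha ligands, had 6, 8 and 8 in LV livers against 17, 10 and 18 in untreated livers. Acot2, its mitochondrial counterpart, had 6, 7 and 6 against 15, 9 and 16. In both genes the groups did not overlap, and untreated replicate 2 stood close to the LV values. The log2 fold changes were -0.91 ± 0.25 and -0.93 ± 0.22 (limma adjusted p = 0.125 and 0.0946). Both passed when untreated replicate 2 was left out (-1.16, limma adjusted p = 0.0399, and -1.17, limma adjusted p = 0.0135). In that fit 59 of all genes tested were called lower. With LV replicate 3 left out as well, Acot1 did not pass (-1.22, limma adjusted p = 0.0858). Acot2 did (-1.14, limma adjusted p = 0.0440), where 1.62% of all genes were called lower. The coding sequences of Acot1 and Acot2 are identical at 95.6% of 1236 aligned bases, so reads may be shared and the genes are not independent measurements.

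Acot12, a cytosolic enzyme that acts on acetyl-CoA, had 25, 31 and 39 against 44, 48 and 57, without overlap (-0.65 ± 0.19, limma adjusted p = 0.145). Unlike in Acot1 and Acot2, untreated replicate 2 was not the lowest untreated value. Acot4 and Acot8, thioesterases of peroxisomes, overlapped between groups, with 8, 10 and 6 against 12, 7 and 18, and 13, 19 and 13 against 23, 18 and 20.

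Of the other PPAR-alpha targets, Angptl4 had the largest fold change of the 35 genes and the widest standard error. This secreted inhibitor of lipoprotein lipase had 11, 36 and 26 in LV livers against 58, 59 and 124 in untreated livers. The groups did not overlap, but values differed by more than 2-fold within each, and the log2 fold change of -1.74 ± 0.52 did not pass (limma adjusted p = 0.150, 95% interval -3.03 to -0.44). Vnn1, a pantetheinase that frees cysteamine, went against the rest, with 24, 29 and 18 against 14, 13 and 30. It overlapped between groups (0.38 ± 0.36, limma adjusted p = 0.599).

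Set side by side, the median log2 fold change was -0.25 for the 16 mitochondrial, -0.41 for the 6 peroxisomal and -0.65 for the 5 thioesterase genes. The 8 genes of other roles, the regulators, the entry and activation genes, Angptl4 and Vnn1, had -0.64. No test of the differences between classes was made, and the class ranges overlapped: mitochondrial genes ran from -0.49 to 0.07, peroxisomal genes from -1.10 to 0.11 and thioesterases from -0.93 to -0.43. Genes with every LV value below every untreated value numbered 6 of 16, 3 of 6, 3 of 5 and 5 of 8, where the share over all genes was 11.0%.

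**Figure D3:**
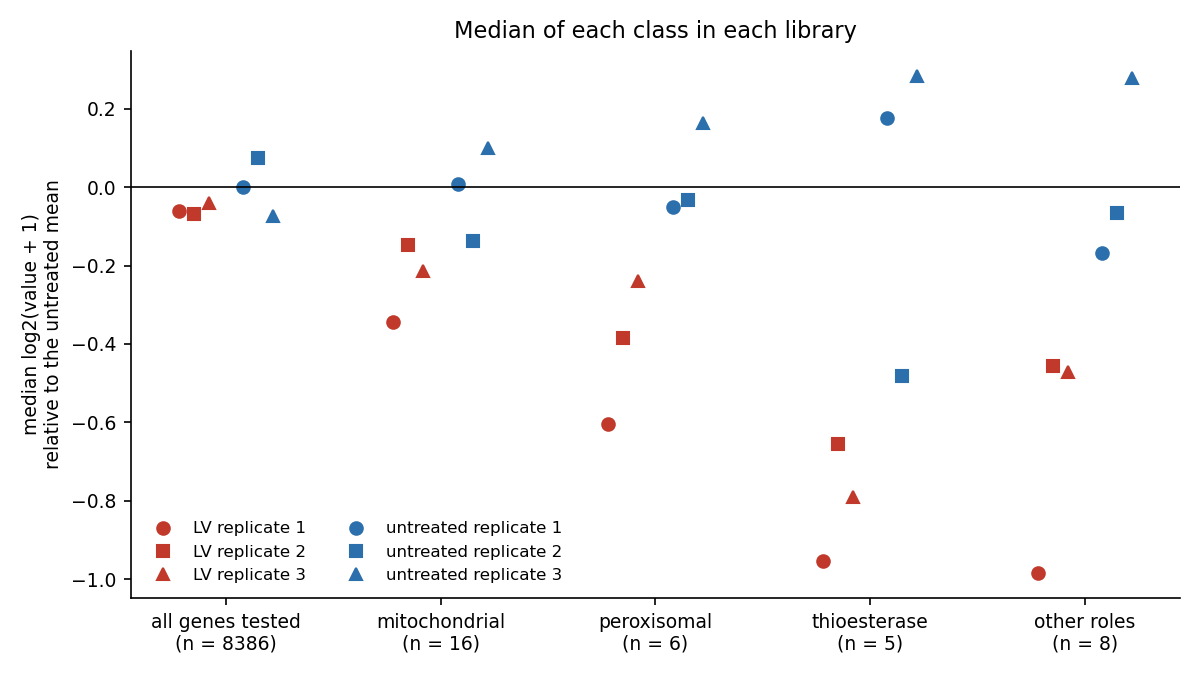
Median of log2(value + 1) relative to the mean of the untreated livers for each class of genes, with a point for each library; n is the number of genes. The 3 LV libraries lie below 0 in every class; untreated replicate 2 lies at -0.48 for thioesterases and at -0.14 for mitochondrial genes, close to the LV points there.

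The LV libraries were low to different degrees. Relative to the untreated mean, the median of all 35 genes was -0.59, -0.26 and -0.35 in LV replicates 1, 2 and 3 and 0.00, -0.14 and 0.14 in untreated replicates 1, 2 and 3. LV replicate 1 was the lowest of the 6 libraries in each of the 4 classes, and it also had the lowest sums of endothelial, Kupffer cell and clock output genes. Among the mitochondrial genes the gap closed almost fully: LV replicate 2 stood at -0.15 and untreated replicate 2 at -0.14. For thioesterases LV values were -0.95, -0.65 and -0.79 against 0.18, -0.48 and 0.28. Of the 35 genes, 26, 22 and 26 lay below the lowest untreated value in LV replicates 1, 2 and 3, as did 31.6%, 27.5% and 24.5% of all genes tested. Untreated replicate 3 held the highest untreated value in 26 of the 35 genes, ties included, a count not taken over all genes. Its column sum of 526009 was the highest of the 6, where the others lay between 497295 and 503997. The typical gene was not higher there. Relative to the untreated mean, the median of all genes tested was 0.00, 0.07 and -0.07 in untreated replicates 1, 2 and 3.

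With LV replicate 3 and untreated replicate 2 both left out, the libraries with high male-biased genes, the medians lay further from 0 while fewer genes passed. The median of the 35 was then -0.43, and it was -0.32 for mitochondrial, -0.51 for peroxisomal and -0.82 for thioesterase genes. Acot2 was the 1 gene called lower (-1.14, limma adjusted p = 0.0440), where 1.62% of all genes were, and Acsl1 and Acaa1b were not (-1.07 and -1.27, adjusted p = 0.107 and 0.0998). With all 6 libraries and a term for this pair, Acsl1 was called (adjusted p = 0.0358) and Acaa1b was not (0.0513), where 1.24% of all genes were called lower. That fit was added after the data were seen.

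A wider list of genes of the same pathways, none of them among the 37, also had mostly negative fold changes. It held 111 genes, of which 94 were in the table, 89 by symbol and 5 by a unique synonym. Of these, 85 had a negative log2 fold change, with a median of -0.33, and 0 were called in either direction in limma. At an unadjusted p under 0.05, 26 were lower and 2 higher, where 10.3% and 9.21% of all genes were. In 26 every LV value lay below every untreated value and in 2 above, against 11.0% and 8.65% of all genes. Nearest to the threshold was Aldh3a2, a fatty aldehyde dehydrogenase (43, 55 and 63 against 88, 90 and 94, limma adjusted p = 0.0576). Next came Lpin2, a phosphatidate phosphatase (38, 48 and 46 against 63, 66 and 79, limma adjusted p = 0.0697). Slc27a4, a fatty acid transport protein, had the same adjusted p, with 11 in every LV library against 14 in every untreated one. The rounded values of Slc27a4 did not vary within a group, so limma drew its standard error from the spread of other genes. Ppargc1b, a coactivator of nuclear receptors, had 1, 2 and 4 against 7, 9 and 11 (adjusted p = 0.0747). The 2 genes with every LV value above every untreated value were Med1 and Hnf4a. Med1 had 24, 21 and 25 against 13, 19 and 14 (limma adjusted p = 0.127). Hnf4a had 227, 218 and 216 against 189, 193 and 184 (limma adjusted p = 0.160). These genes and Rxra were picked from the list after their values were seen.

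Crot, the peroxisomal carnitine octanoyltransferase, had 132, 122 and 137 in LV livers against 167, 136 and 142 in untreated livers, with overlap.

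Cyp4a10 and Cyp4a14, omega-hydroxylases strongly induced through PPAR-alpha, were lowest, within each group, in the library with high male-biased genes. Cyp4a14 had 209, 227 and 30 against 325, 94 and 307, and Cyp4a10 had 105, 177 and 69 against 306, 104 and 272. Neither passed, and the groups overlapped in both. Acot3 had 4, 3 and 1 against 3, 2 and 20, a difference made by untreated replicate 3. Fgf21 is not among the listed genes.

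**Figure D4:**
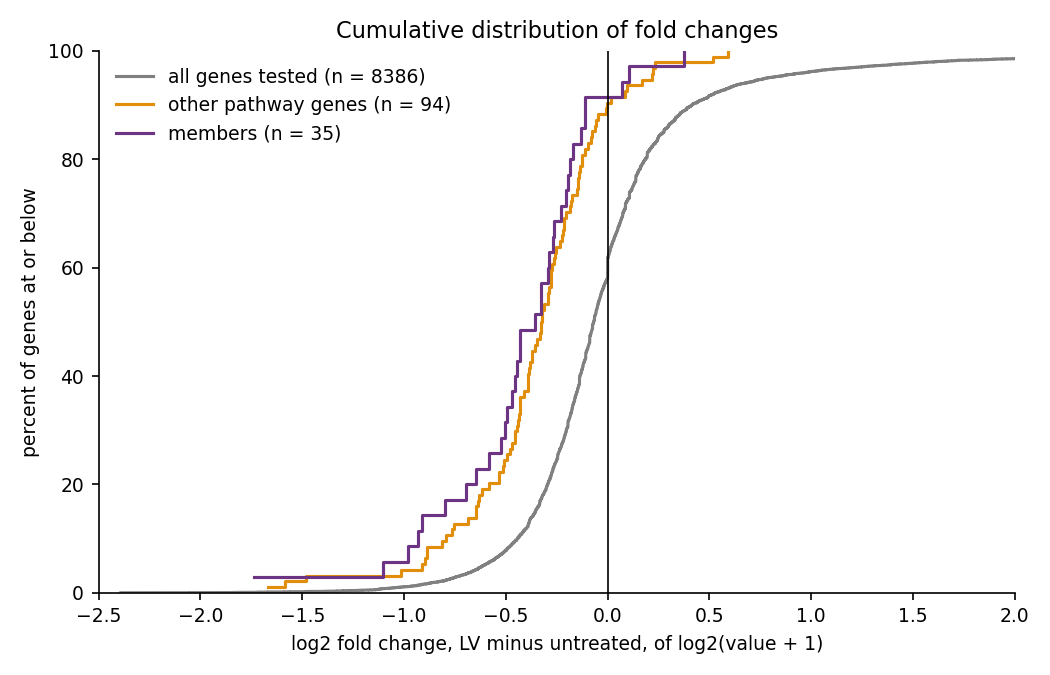
Cumulative percentage of genes against log2 fold change (LV minus untreated, on the log2(value + 1) scale) for the 35 genes, the 94 other pathway genes and all 8386 genes tested; the axis is limited to between -2.5 and 2. The curves of both pathway lists lie left of that of all genes, with medians of -0.35, -0.33 and -0.07.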

How the data were processed

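The authors deposited 1 table of whole numbers per gene and library, made from total RNA of whole liver with a TruSeq RNA library kit, per the labels' protocols. The submitters' processing notes name the build mm9, whereas the aligner, annotation, counting method and unit are not given there or in the labels. The deposited values were treated as a score, a normalized expression value that the authors rounded. Column sums were nearly equal, and for genes with a mean of 2 to 5 the variance among replicates was 0.236 (LV) and 0.218 (untreated) times the mean, below that of counted reads. Read depth is therefore unknown.

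Columns were matched to samples by description, and groups were taken from the titles and treatment labels. The injection protocol is written on all 6 sample labels, also on those called untreated. The labels do not say whether replicates are separate animals, and p-values measure only the spread among these libraries. Of 8390 genes, 8386 reached 1 in 3 or more libraries and were kept. Log2(value + 1) was fitted by group in limma 3.58.1 (R 4.3.3) with an intensity trend. P-values are two-sided and were adjusted by Benjamini-Hochberg over the 8386 genes. Fold changes on this scale understate the change of low genes. The fit was tested on simulated data. The rule for named genes took all members and 7 genes of the wider list (6 were in the table) with any of that list called in limma, of which there were 0. Some of those genes are not reported here. The members, classes and lists were chosen with earlier results of these data known. Start-site windows came from RefSeq (GRCm38.p6) and coding sequences from the GENCODE annotation of that assembly. Alternatives comprised single libraries left out, a replicate block, other pseudocounts, filters, scalings and thresholds, and no intensity trend.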

Additional observations from a re-analysis of the deposited data

How the results depend on the processing

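The sign of the median of the 35 genes held under every alternative, with a range of -0.44 to -0.29 when 1 library was left out, -0.43 without LV replicate 3 and untreated replicate 2, and -0.30 with median-of-ratios scaling. Calls were less stable. The 2 lower genes became 0 to 3 with 1 library left out, 0 with a replicate block or an adjusted p under 0.01, 4 at an adjusted p under 0.1, and 1 either without LV replicate 3 and untreated replicate 2 or with a term for them; the number stayed at 2 under the other pseudocounts, filters and scalings and without the trend. Over all genes, the 315 higher and 73 lower became 119 to 313 and 10 to 116 with 1 library left out, 145 and 11 with the block, 156 and 19 at an adjusted p under 0.01, with 225 lower at 0.1 and 136 lower without LV replicate 3 and untreated replicate 2. In the block, Acsl1 had an adjusted p of 0.0599 and Acaa1b of 0.186. Same-numbered libraries did not deviate together in every pair (r = 0.278, -0.470 and -0.337 across 8386 genes), and LV replicate 3 deviated most like untreated replicate 2 (r = 0.612), so the numbers were not read as pairs.

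The peroxisomal call was lost in 5 of the 6 fits without 1 library. In the thioesterases 2 genes were lower without untreated replicate 2, where 59 of all genes tested were. In the wider list the 0 lower genes became 3 with a mean of at least 5, equal totals, median of ratios or upper quartile. Over all genes, 74, 79, 68 and 80 were lower in these settings, in that order. Without LV replicate 2 the list had 2 lower, where 10 of all genes were, and without LV replicate 3 it had 4, where 116 were. At an adjusted p under 0.1 it had 8, where 225 of all genes were. Signs turned for 2 genes near 0: Etfa ranged from -0.048 to 0.13 and Cd36 from -0.41 to 0.013 with 1 library left out, and Cd36 was 0.050 without LV replicate 3 and untreated replicate 2. The cause of these changes was not tested. Rounding limits genes with values under about 10, such as Cd36, Hadhb, Acot1 and Acot2.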
